A study of Mus musculus with 12 samples.

Results

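The transforming growth factor beta (TGF-beta) genes described here are 9 genes, taken by name from the 24011 genes with a symbol on the arrays: the ligand genes Tgfb1, Tgfb2 and Tgfb3, the receptor genes Tgfbr1, Tgfbr2 and Tgfbr3, and the latent binder genes Ltbp1, Ltbp2 and Ltbp4. They were followed in LSECs (sinusoidal endothelial cells of the liver), the fenestrated scavenger endothelium of its capillaries. The cells came from mice lacking both stabilins (DKO), mice lacking stabilin-1 (Stab1KO), mice lacking stabilin-2 (Stab2KO) and wild-type mice (WT), all listed as strain C57BL/6J and 3 to 4 months old. Stabilin-1 and stabilin-2 are large endocytic receptors that clear many circulating and matrix proteins. Each genotype had 3 Affymetrix arrays, each array held RNA pooled from 3 mice, and cells were taken from perfused livers with beads against CD146, an endothelial surface protein. No treatment is given for any group, the labels describe neither how the alleles were made nor whether WT and knockout mice were littermates, and colony and genotype cannot be told apart in comparisons against WT.

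TGF-beta is secreted in a latent form. The growth factor stays wrapped in its own propeptide, and latent TGF-beta binding proteins tether that complex to the matrix until integrins, proteases or thrombospondin release it. The freed ligand binds the type II receptor, which recruits and phosphorylates the type I receptor, and the signal passes to the nucleus through Smad2, Smad3 and Smad4. In the liver this pathway is best known for activating stellate cells, the vitamin A-storing pericytes that lie beneath the sinusoidal endothelium and produce collagen after injury.

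The deleted genes followed the labels. Stab1 measured 4.98 to 5.45 log2 on the DKO and Stab1KO arrays, against 12.46 to 12.62 on the Stab2KO and WT arrays. Stab2 measured 5.46 to 7.60 on the DKO and Stab2KO arrays, against 12.99 to 13.09 on the Stab1KO and WT arrays. The 13 other LSEC markers, among them Lyve1 and Clec4g, lay between 11.05 and 13.79 on every array. With the stabilins included, 13 of 15 LSEC markers were lower in DKO than in WT, at a median of -0.15 log2 (-0.10 without DKO replicate 3). An unadjusted p under 0.05 (limma) was reached by 9 of the 15, against 16.7% of all genes. Both deleted stabilins, low in DKO by design, are among these markers. Markers of other liver cells were also measured, with albumin mRNA (Alb, hepatocytes) at 11.16 to 12.63 and Clec4f (Kupffer cells) at 8 to 10.72. DKO replicate 3 stood apart: its correlation with the other arrays was 0.956 to 0.968 over all genes, against at least 0.987 between any pair of the other 11, and its 12 neutrophil markers averaged 11.36 log2 against 5.32 to 6.63 on the other arrays. Differences from WT that rest on it are therefore given with and without it.

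Tgfb2 was the 1 gene of the 9 that passed the test in any comparison: it was higher in DKO than in WT LSECs. Tgfb2 encodes a ligand that needs betaglycan to bind the type II receptor efficiently. It lies on chromosome 1, and its promoter is shown because it is the member whose transcript level moved. The RefSeq promoter on build GRCm38.p6, chr1:186705940-186706239 on the minus strand, covers 250 bases before and 50 after the annotated start and is written 5′ to 3′ in the direction of transcription, with an E-box and a TATA motif in capitals.
Tgfb2 promoter: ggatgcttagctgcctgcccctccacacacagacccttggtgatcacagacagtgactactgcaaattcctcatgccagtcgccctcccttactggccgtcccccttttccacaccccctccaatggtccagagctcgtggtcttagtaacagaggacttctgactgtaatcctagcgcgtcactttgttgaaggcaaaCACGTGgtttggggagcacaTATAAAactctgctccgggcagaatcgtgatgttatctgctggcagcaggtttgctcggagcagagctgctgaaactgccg
The E-box, CACGTG, begins at position -51 and the TATA motif, TATAAA, at -31, counted back from the start. Of 32851 RefSeq promoters of the same length, 7.15% hold CACGTG and 13.6% hold TATAAA, on either strand. The cyclic AMP response element TGACGTCA (in 1.79% of promoters), the AP-1 motif TGANTCA (7.81%) and the palindromic Smad motif GTCTAGAC (0.213%) were not in this window on either strand. Only these full-length forms were searched, so their absence does not cover shorter or variant forms of such sites. No array value bears on which factor binds there.

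The deposited values are log2 expression values, in which a difference of 1 is a doubling. Tgfb2 measured 7.57, 7.23 and 7.31 in the DKO pools, 6.92, 6.89 and 6.69 in the Stab1KO pools, 6.84, 7 and 6.81 in the Stab2KO pools, and 6.87, 5.95 and 6.27 in the WT pools. Every DKO pool was above every other pool, while WT replicate 1 lay among the single knockouts. The means were 7.37 ± 0.18 in DKO, 6.83 ± 0.13 in Stab1KO, 6.89 ± 0.10 in Stab2KO and 6.37 ± 0.47 in WT (SD, n = 3 each). DKO therefore exceeded WT by 1.00 log2 ± 0.19 (SE), a 2.01-fold difference with a 95% interval of 0.58 to 1.43 log2 (limma, adjusted p = 0.0315 over all genes). Bulk RNA gives the amount of a transcript per total RNA, so a change in how many cells of a type were present and a change in RNA per cell cannot be told apart.

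Of the 9 genes, 1 passed an adjusted p of 0.05 in DKO against WT, where 1.8% of all genes did. At an unadjusted p under 0.05 the count was 4 of 9, against 16.7% of all genes. The Tgfb2 call was close to the threshold. It was lost in 6 of 12 fits that left out 1 array: without DKO replicate 1 (log2 difference 0.90, adjusted p = 0.0757), without DKO replicate 2 (1.07, 0.0501), without WT replicate 2 (0.80, 0.0994) and without WT replicate 3 (0.96, 0.107), and, at an unmoved 1.00, without Stab2KO replicate 1 (0.0528) or replicate 2 (0.0519). It was kept without the outlying DKO replicate 3, at 1.03 (adjusted p = 0.0486), and without WT replicate 1 it was 1.26 (adjusted p = 0.00275).

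Mean Tgfb2 in the single knockouts lay between those of DKO and WT. The comparisons against WT share its 3 arrays. It was 0.47 log2 above WT in Stab1KO (interval 0.04 to 0.90, limma adjusted p = 1) and 0.52 above WT in Stab2KO (interval 0.09 to 0.95, adjusted p = 0.524). Neither passed the test. Stab1KO and Stab2KO differed from each other by -0.05 (interval -0.48 to 0.38, adjusted p = 0.996). DKO was 0.54 above Stab1KO (interval 0.11 to 0.97, adjusted p = 0.207) and 0.48 above Stab2KO (interval 0.05 to 0.91, adjusted p = 0.206), with no overlap of pools in either case. The interaction, which is the DKO effect beyond the sum of the 2 single-knockout effects, was 0.02 ± 0.27 (SE) for Tgfb2, with an interval of -0.59 to 0.62 (limma adjusted p = 0.988). In the order DKO, Stab2KO, Stab1KO and WT, no neighbouring pair of Tgfb2 levels therefore passed the test.

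**Figure D1:**
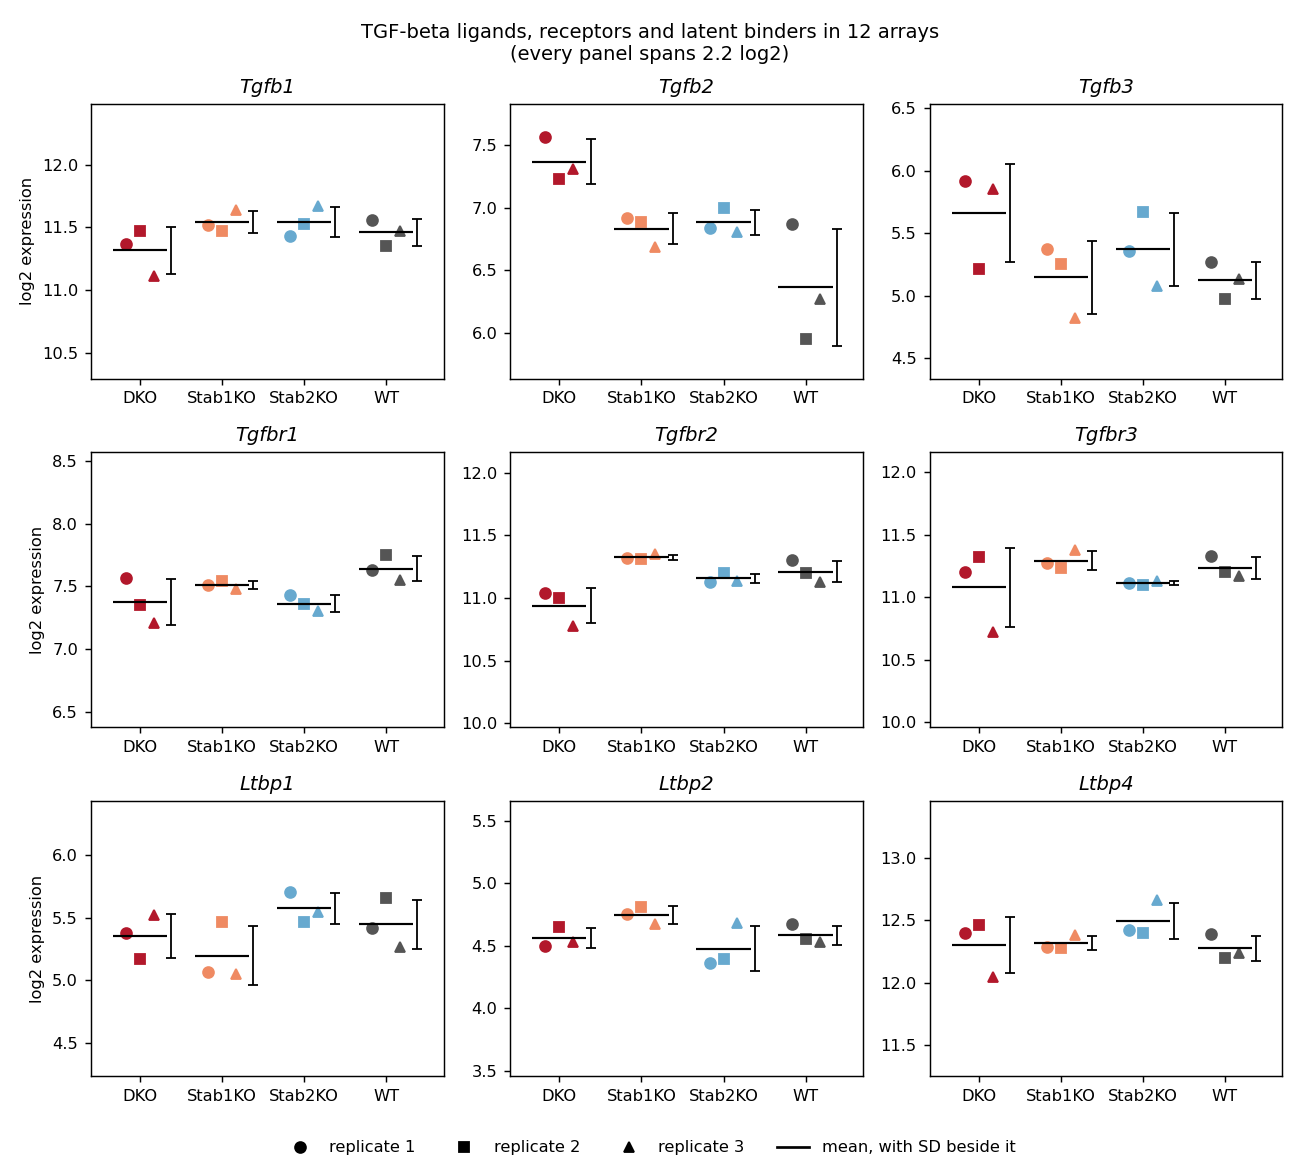
Log2 expression (vertical axes, all of the same length) of the 9 genes on every array, by genotype; points are pools of 3 mice, horizontal lines are means of 3 pools and the bars beside them SD. The 3 DKO pools of Tgfb2 lie above all others, and DKO replicate 3 (triangle) is the lowest of all arrays for Tgfb1, Tgfbr1, Tgfbr2, Tgfbr3 and Ltbp4.

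The other ligand genes did not pass the test in any of the 7 comparisons. Tgfb1, the isoform most studied in liver fibrosis, measured 11.37, 11.47 and 11.11 in DKO, 11.52, 11.47 and 11.64 in Stab1KO, 11.43, 11.53 and 11.67 in Stab2KO and 11.56, 11.35 and 11.47 in WT. The ranges of all genotypes overlapped, and DKO replicate 3 was the lowest pool. Tgfb1 differed from WT by -0.14 in DKO (interval -0.38 to 0.10), 0.09 in Stab1KO (interval -0.15 to 0.32) and 0.09 in Stab2KO (interval -0.15 to 0.32), with limma adjusted p-values of 0.564, 1 and 0.926. Without DKO replicate 3 the DKO difference of Tgfb1 was -0.04 (adjusted p = 0.928). The 8 platelet markers, a check because platelets carry much TGF-beta1, averaged 5.60 to 5.86 in DKO and 5.52 to 5.78 in Stab1KO. They averaged 5.66 to 5.94 in Stab2KO and 5.47 to 5.85 in WT. With limma 0 of the 8 passed in DKO, Stab1KO or Stab2KO against WT, where 1.8%, 0.308% and 0.296% of all genes did. An unadjusted p under 0.05 was reached by 1, 0 and 0, against 16.7%, 3.91% and 7.62% of all genes.

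Tgfb3 encodes the third ligand. It measured 5.92, 5.21 and 5.85 in DKO, 5.37, 5.25 and 4.82 in Stab1KO, 5.36, 5.67 and 5.08 in Stab2KO and 5.27, 4.97 and 5.13 in WT, close to the array median of 5.11. DKO replicates 1 and 3 were the highest of all pools, while DKO replicate 2 overlapped the other genotypes. Tgfb3 was 0.54 above WT in DKO, with an interval of 0.06 to 1.02 that excludes 0 before adjustment over all genes (limma adjusted p = 0.246), and the difference was 0.44 without DKO replicate 3 (adjusted p = 0.457). In Stab1KO and Stab2KO the Tgfb3 differences were 0.02 and 0.25.

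Among the receptors, differences were small and none passed the test. Tgfbr1, the type I receptor kinase (ALK5), measured 7.57, 7.35 and 7.21 in DKO, 7.51, 7.54 and 7.48 in Stab1KO, 7.43, 7.36 and 7.30 in Stab2KO and 7.63, 7.75 and 7.55 in WT. All single-knockout pools were below all WT pools, and 2 of 3 DKO pools were. The differences of Tgfbr1 from WT were -0.27 in DKO (interval -0.47 to -0.06, limma adjusted p = 0.189), -0.14 in Stab1KO (interval -0.34 to 0.07, adjusted p = 1) and -0.28 in Stab2KO (interval -0.49 to -0.07, adjusted p = 0.462). Without DKO replicate 3 the DKO difference of Tgfbr1 was -0.18 (adjusted p = 0.407).

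Tgfbr2, the type II receptor that binds ligand first, measured 11.04, 11 and 10.78 in DKO, 11.32, 11.31 and 11.35 in Stab1KO, 11.13, 11.20 and 11.14 in Stab2KO and 11.30, 11.20 and 11.13 in WT. The DKO pools were the lowest and the Stab1KO pools the highest, with the Stab2KO and WT pools overlapping between them. DKO differed from Stab1KO by -0.39 (interval -0.57 to -0.21, limma adjusted p = 0.0573), a value just outside the threshold. Tgfbr2 passed it in 2 alternative fits, at an adjusted p of 0.0416 with a trended, robust variance and at 0.0453 with array weights, where the difference was -0.33. Without DKO replicate 3 it was -0.31 (adjusted p = 0.084). Against Stab2KO the DKO difference of Tgfbr2 was -0.22 (adjusted p = 0.175), or -0.14 without DKO replicate 3, and against WT -0.27 (adjusted p = 0.126), which without DKO replicate 3 was -0.19 (adjusted p = 0.274). The interaction was -0.34 (interval -0.59 to -0.08, adjusted p = 0.258).

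Tgfbr3 encodes betaglycan, the co-receptor that presents ligand, TGF-beta2 above all, to the type II receptor. It measured 11.20, 11.32 and 10.72 in DKO, 11.27, 11.23 and 11.38 in Stab1KO, 11.11, 11.10 and 11.13 in Stab2KO and 11.33, 11.20 and 11.17 in WT. The Stab2KO pools lay below every WT and Stab1KO pool within a narrow band, and the low DKO value was again replicate 3. Differences of Tgfbr3 from WT were -0.15 in DKO, 0.06 in Stab1KO and -0.12 in Stab2KO (limma adjusted p = 0.623, 1 and 0.916). The DKO difference of Tgfbr3 turned to 0.03 without DKO replicate 3 (adjusted p = 0.941).

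The latent binder genes showed no change that passed the test. Ltbp4, which supports elastic fibre assembly as well as carrying latent TGF-beta1, measured 12.40, 12.46 and 12.05 in DKO, 12.29, 12.28 and 12.38 in Stab1KO, 12.42, 12.40 and 12.66 in Stab2KO and 12.39, 12.20 and 12.24 in WT. The Stab2KO pools lay just above the WT pools, by 0.22 (interval -0.04 to 0.47, limma adjusted p = 0.735). Ltbp4 differed from WT by 0.03 in DKO (interval -0.23 to 0.28) and by 0.04 in Stab1KO (interval -0.21 to 0.29). DKO replicate 3 was the lowest pool, and without it the DKO difference of Ltbp4 was 0.15 (limma adjusted p = 0.568).

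Ltbp1, the best-known tether of latent TGF-beta to the matrix, measured 5.38, 5.17 and 5.52 in DKO, 5.07, 5.47 and 5.05 in Stab1KO, 5.71, 5.47 and 5.55 in Stab2KO and 5.42, 5.66 and 5.27 in WT. Its widest gap was between the single knockouts, where Stab1KO differed from Stab2KO by -0.38 (interval -0.70 to -0.06, limma adjusted p = 0.603). From WT, DKO differed by -0.09 for Ltbp1, or -0.18 without DKO replicate 3, and by -0.02 for Ltbp2, or -0.01. Ltbp2, a family member that does not bind latent TGF-beta and attaches to microfibrils, measured 4.50, 4.65 and 4.53 in DKO, 4.75, 4.81 and 4.67 in Stab1KO, 4.36, 4.39 and 4.68 in Stab2KO and 4.67, 4.55 and 4.53 in WT. Stab1KO exceeded Stab2KO by 0.27 for Ltbp2 (interval 0.06 to 0.48, adjusted p = 0.576). Values of Ltbp1 and Ltbp2 sat near or below the array median of 5.11, where an unknown share of the signal is background.

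**Figure D2:**
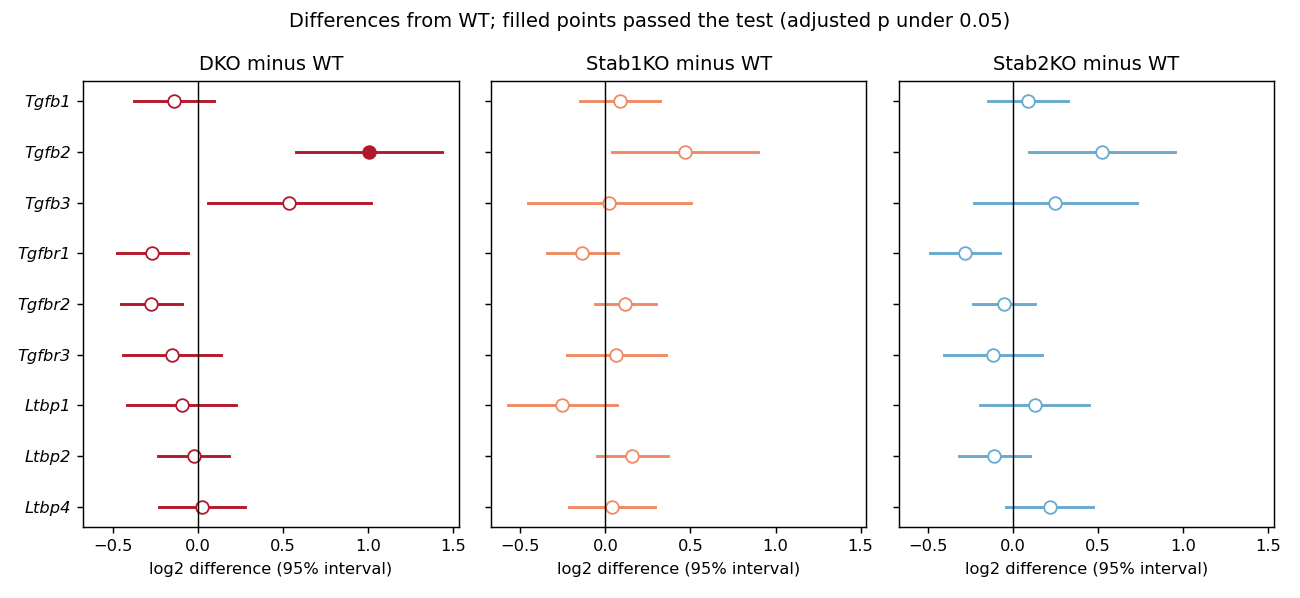
Log2 difference from WT (horizontal axes) of each gene in DKO, Stab1KO and Stab2KO; points are differences of means of 3 pools, lines the 95% intervals before adjustment, and a filled point passed the test. Tgfb2 in DKO, at 1.00, is the 1 filled point.

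Counted over all 9 genes with limma, 0 passed in Stab1KO against WT, where 0.308% of all genes did, and 0 in Stab2KO against WT, where 0.296% did. At an unadjusted p under 0.05 the counts were 1 (Tgfb2) and 2 (Tgfb2 and Tgfbr1), against 3.91% and 7.62% of all genes. In DKO against Stab1KO 0 of 9 passed, where 0.945% of all genes did, and 3 had an unadjusted p under 0.05 (Tgfb2, Tgfb3 and Tgfbr2), against 16.2% of all genes. In DKO against Stab2KO 0 passed, where 3.42% of all genes did, and 2 had an unadjusted p under 0.05 (Tgfb2 and Tgfbr2), against 18.9%. In Stab1KO against Stab2KO 0 passed, where 0.108% of all genes did, and 2 had an unadjusted p under 0.05 (Ltbp1 and Ltbp2), against 7.07% of all genes. For the interaction 0 passed, where 0.05% of all genes did, and 1 had an unadjusted p under 0.05 (Tgfbr2), against 12.5% of all genes. The median log2 difference of the 9 genes was -0.09 in DKO, 0.06 in Stab1KO and 0.09 in Stab2KO against WT, beside -0.02, 0.01 and 0.01 for all genes. The DKO median was -0.01 without DKO replicate 3.

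Groups whose pools do not overlap were also counted. They did not overlap for 2 of the 9 genes in DKO against WT (Tgfb2 and Tgfbr2), where 24% of all genes did not, for 2 in Stab1KO against WT (Tgfbr1 and Tgfbr2), where 10.1% did not, and for 3 in Stab2KO against WT (Tgfbr1, Tgfbr3 and Ltbp4), where 15.7% did not. In DKO against Stab1KO the count was 3 (Tgfb2, Tgfbr2 and Ltbp2), beside 19.7% of all genes, in DKO against Stab2KO 2 (Tgfb2 and Tgfbr2), beside 21.2%, and in Stab1KO against Stab2KO 4 (Tgfbr1, Tgfbr2, Tgfbr3 and Ltbp4), beside 12.6%. With 9 genes these shares are too coarse to set the family apart from the genome.

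The genes whose pattern over the 12 arrays was most like that of Tgfb2, out of 19619 compared, were Cd200 (Pearson r = 0.973), Gfpt2 (0.964) and Gpm6a (0.955). Cd200 encodes a surface protein that restrains myeloid cells, Gfpt2 an enzyme of hexosamine synthesis and Gpm6a a membrane glycoprotein. Cd200 measured 8.74, 8.18 and 8.19 in DKO, 7.89, 7.85 and 6.96 in Stab1KO, 7.62, 7.57 and 7.71 in Stab2KO and 7.64, 5.88 and 6.48 in WT. All of Cd200, Gfpt2 and Gpm6a also had their highest value in DKO replicate 1 and their lowest in WT replicate 2, as Tgfb2 did. Against WT the DKO differences were 1.70 for Cd200 (limma adjusted p = 0.057), 1.12 for Gfpt2 (0.0421) and 1.24 for Gpm6a (0.0677). The 12 arrays share their genotypes, so this likeness is a description.

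Marker lists of other cell types also differed between DKO and WT. The 13 large-vessel endothelial markers, among them Vwf, averaged 8.96, 8.99 and 8.67 in DKO and 8.68, 8.68 and 8.46 in Stab1KO. They averaged 8.70, 8.57 and 8.58 in Stab2KO and 8.55, 7.84 and 8.18 in WT. The WT pools stood in the same order as for Tgfb2, and the DKO and Stab2KO pools did not. In DKO against WT 5 of the 13 rose and 0 fell, at a median of 0.73 (4 without DKO replicate 3), where 0.754% of all genes rose and 1.05% fell. Whether called or not, 10 of the 13 were above WT and 3 below, with differences of -0.57 to 1.57. Vwf measured 11.41, 10.96 and 10.80 in DKO against 10.89, 9.17 and 9.73 in WT, with overlapping pools. Of 6 bile duct markers 4 rose in DKO, at a median of 1.45, or 2 without DKO replicate 3, and the list averaged 7.49 to 7.70 in DKO, 5.86 to 6.43 in Stab1KO, 6.18 to 6.80 in Stab2KO and 5.86 to 6.40 in WT. Their part in the Tgfb2 difference was not tested.

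**Figure D3:**
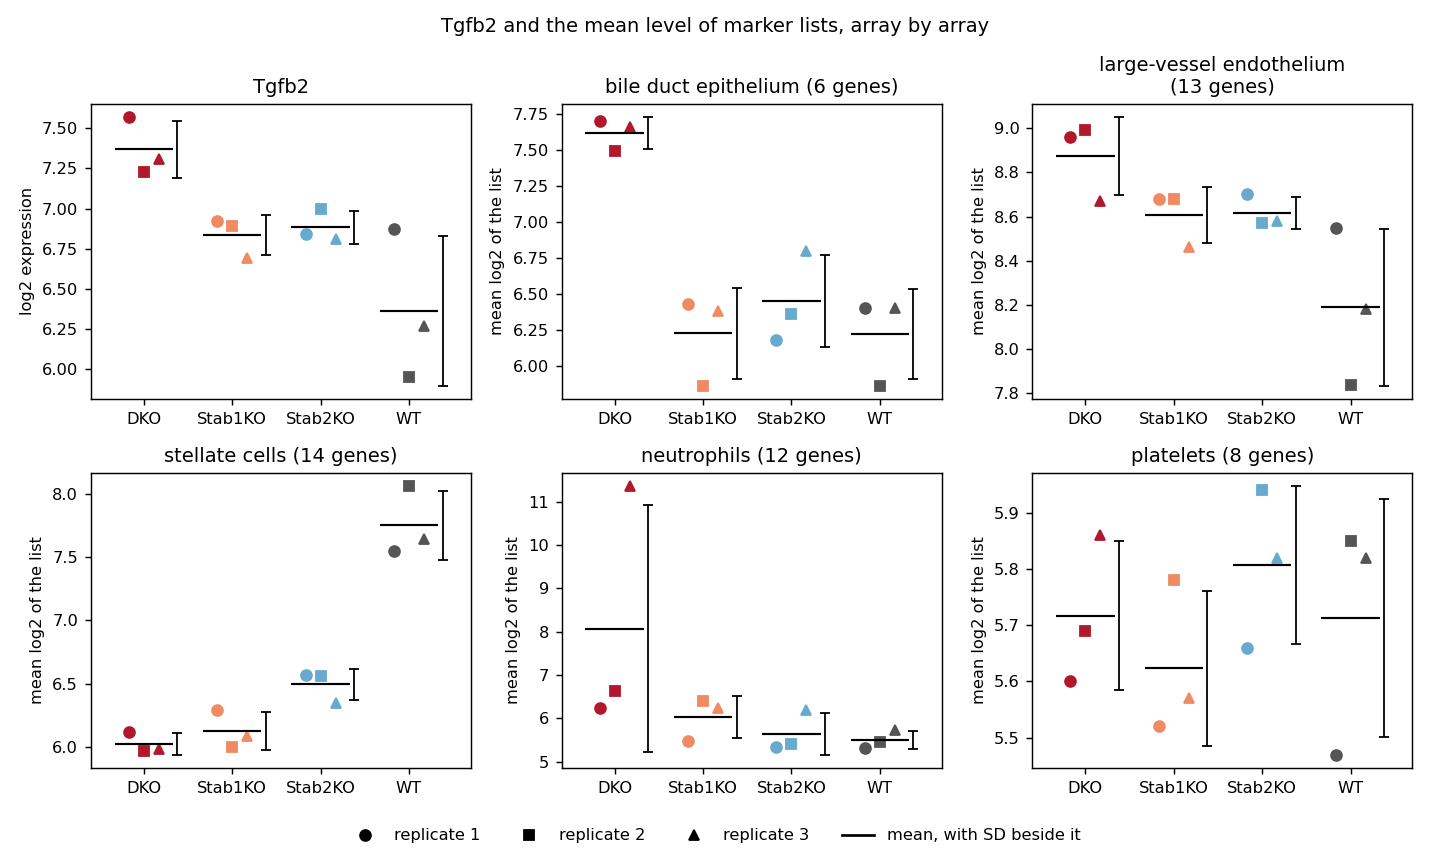
Log2 expression of Tgfb2 and mean log2 level of 5 marker lists (vertical axes, each with its own scale) on every array, by genotype; points are pools, horizontal lines means of 3 pools and bars SD. Large-vessel markers are lowest in WT replicate 2 (7.84), as is Tgfb2 (5.95). They are highest in DKO replicate 2 (8.99), while Tgfb2 is highest in DKO replicate 1 (7.57). Stellate markers lie at 7.55 or more in WT and at 6.57 or less elsewhere, and neutrophil markers stand out at 11.36 in DKO replicate 3.

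The other genes of the pathway were taken from lists of storage and release, signal transduction and induced genes. The storage and release list also holds matrix genes whose products bind TGF-beta or hinder its maturation, so its counts do not measure release. Of its 22 measured genes, 4 fell and 0 rose in DKO against WT (median -0.07), 2 fell and 0 rose in Stab1KO (median -0.02), and 3 fell and 0 rose in Stab2KO (median -0.16). Of all genes, 1.05% fell in DKO and 0.754% rose. In Stab1KO 0.279% fell and 0.0292% rose, and in Stab2KO 0.212% fell and 0.0833% rose. Without DKO replicate 3, 3 genes fell in DKO (median -0.04). At an unadjusted p under 0.05 (limma) the counts were 12, 3 and 8 of 22 in DKO, Stab1KO and Stab2KO. The shares of all genes were 16.7%, 3.91% and 7.62%. The largest DKO rises did not pass the test. Mmp9 measured 6.72, 7.57 and 12.85 in DKO against 6.18, 6.21 and 6.38 in WT, and Thbs1 8.48, 9.17 and 11.82 against 6.92, 7.51 and 7.52. Both were highest in DKO replicate 3 and were named after their values were seen. Emilin1, a matrix glycoprotein that hinders maturation of the TGF-beta precursor, measured 10.31, 10.12 and 10.32 in DKO, 10.84, 10.87 and 10.74 in Stab1KO, 10.62, 10.78 and 10.71 in Stab2KO and 10.85, 11.05 and 11.10 in WT. The DKO pools lay below all others. The Emilin1 difference was -0.75 ± 0.09 (SE) against WT (limma adjusted p = 0.00274), -0.56 against Stab1KO (adjusted p = 0.0237) and -0.45 against Stab2KO (adjusted p = 0.0293). The call against WT was kept in all 12 fits without 1 array. That against Stab1KO was lost without DKO replicate 2 or any 1 Stab1KO array (adjusted p = 0.0505 to 0.106), and that against Stab2KO without DKO replicate 1 or 2 or Stab2KO replicate 1 or 2 (adjusted p = 0.055 to 0.111).

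Dcn encodes decorin, a proteoglycan that binds TGF-beta, and Mmp2 a gelatinase. Dcn fell to 9.84, 9.48 and 9.66 in DKO, 10.16, 9.47 and 9.82 in Stab1KO and 10.56, 10.70 and 10.10 in Stab2KO, against 11.87, 12.23 and 11.92 in WT. The differences from WT were -2.35, -2.19 and -1.56 (limma adjusted p = 0.000212, 0.000648 and 0.0095). Mmp2 fell by 0.82 in DKO, by 1.16 in Stab1KO and by 0.77 in Stab2KO (adjusted p = 0.00814, 0.00164 and 0.0286), at levels near the array median, and the Mmp2 call in Stab2KO was lost without any 1 of its own arrays, any 1 WT array, DKO replicate 1 or Stab1KO replicate 2 (adjusted p = 0.0515 to 0.168) and with the replicate number as a block (0.082). Dcn is itself in the list of 14 measured stellate markers. Of these, 10 fell in DKO (9 without DKO replicate 3), 9 in Stab1KO and 8 in Stab2KO against WT, with 0 rising. The shares of all genes that fell were 1.05%, 0.279% and 0.212%. The stellate list averaged 5.97 to 6.12 in DKO, 6.00 to 6.29 in Stab1KO and 6.35 to 6.57 in Stab2KO, against 7.55 to 8.06 in WT. Its part in the results for Dcn and Mmp2 was not tested.

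Thbs2 and Itgb3 changed in 1 knockout each against WT. Thbs2, a thrombospondin of the matrix, measured 7.18, 7.22 and 6.95 in DKO against 7.83, 8.09 and 7.74 in WT, a difference of -0.77 (limma adjusted p = 0.034) that missed the threshold without any 1 DKO or WT array, Stab1KO replicate 1 or 3, or Stab2KO replicate 1 (adjusted p = 0.0512 to 0.144). Itgb3, the beta-3 subunit of an integrin that can release latent TGF-beta, was low in Stab2KO, at 8.35, 8.31 and 8.43, against 9.30, 8.93 and 9.22 in WT, and measured 8.99, 8.93 and 9.28 in DKO and 9.12, 9.30 and 9.26 in Stab1KO. The Stab2KO pools lay below all the others. The Itgb3 difference of Stab2KO from WT was -0.79 (adjusted p = 0.0223), and DKO and Stab1KO exceeded Stab2KO by 0.71 (adjusted p = 0.018) and 0.87 (adjusted p = 0.0214). These calls were lost without some of the arrays compared: against WT without any 1 Stab2KO array or WT replicate 1 or 3 (adjusted p = 0.0519 to 0.108), for DKO without Stab2KO replicate 1 or 2 (0.0742 and 0.0785), and for Stab1KO without any 1 array of either group (0.0544 to 0.134). Kupffer cell markers averaged 7.20 to 7.64 in Stab2KO against 7.54 to 9.69 in WT. Of these markers 9 of 11 had an unadjusted p under 0.05 (limma) in Stab2KO against WT, beside 7.62% of all genes, at a median of -1.26. After adjustment 0 of 11 passed, where 0.296% of all genes did. The markers averaged 8.02 to 9.21 in DKO and 8.29 to 9.27 in Stab1KO, above Stab2KO as Itgb3 was. Within WT, replicates 1, 2 and 3 averaged 7.54, 9.69 and 8.99 for the markers and measured 9.30, 8.93 and 9.22 for Itgb3. The part of Kupffer cells in the Itgb3 result was not tested.

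**Figure D4:**
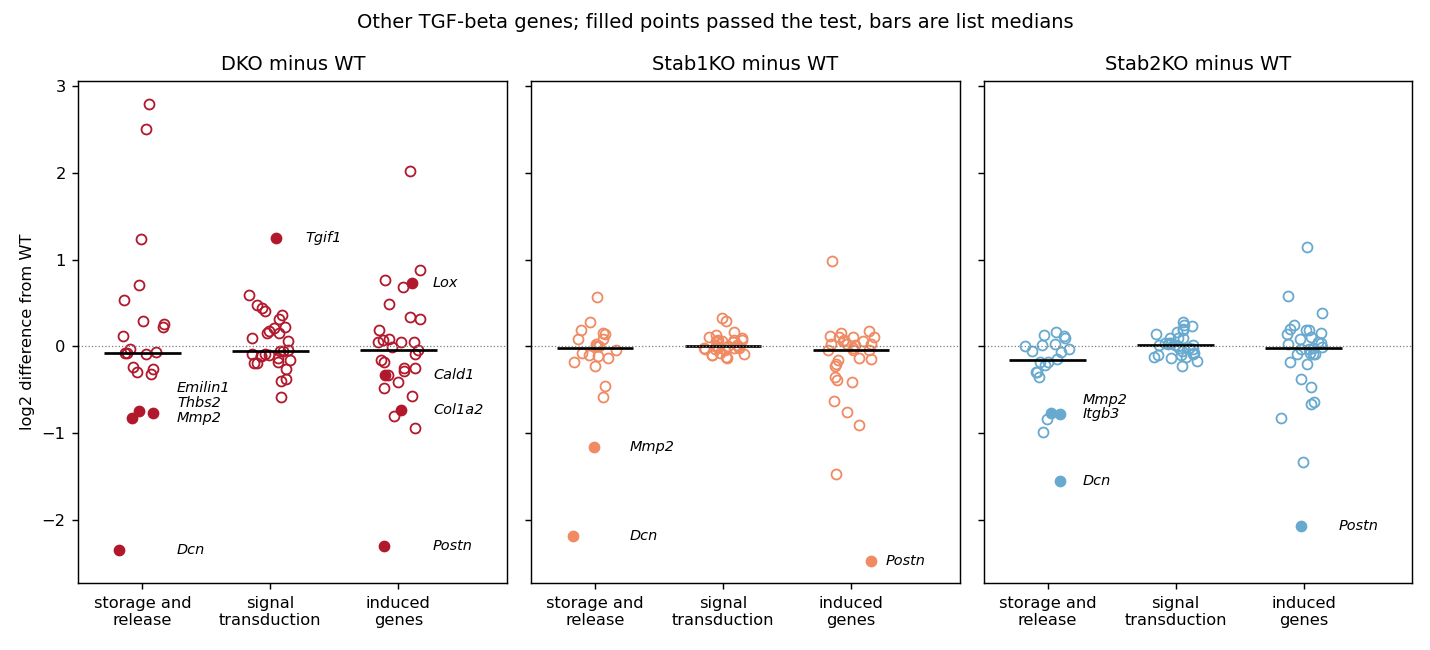
Log2 difference from WT (vertical axis) of the other measured TGF-beta genes in DKO, Stab1KO and Stab2KO: 22 genes of storage and release, 31 of signal transduction and 31 induced genes. Each point is a gene, filled and named where it passed the test, and bars are list medians, which lie between -0.16 and 0.02.

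The signal transduction list holds Smads, receptor partners and regulators. Of 31 genes measured, 1 rose and 0 fell in DKO against WT (median -0.06), counts that stood without DKO replicate 3 while the median turned to 0.04, and with limma 0 passed in Stab1KO (median 0.01) or Stab2KO (median 0.02). Of all genes, 0.754% rose and 1.05% fell in DKO, and 0.308% passed in Stab1KO and 0.296% in Stab2KO. An unadjusted p under 0.05 was reached by 9 in DKO, 1 in Stab1KO and 0 in Stab2KO, against 16.7%, 3.91% and 7.62% of all genes. The riser was Tgif1, a homeobox repressor that binds Smads, which measured 8.16, 8.38 and 8.75 in DKO, 7.27, 7.21 and 7.29 in Stab1KO, 7, 7.26 and 7.80 in Stab2KO and 6.81, 7.33 and 7.42 in WT. All DKO pools exceeded all others, by 1.24 ± 0.22 (SE) over WT (limma adjusted p = 0.0221), 1.17 over Stab1KO (adjusted p = 0.0378) and 1.07 over Stab2KO (adjusted p = 0.032). The highest Tgif1 value was in DKO replicate 3, the array with the high neutrophil markers, and the difference from WT kept its call without that array. It lost it without any 1 WT array (adjusted p = 0.0518 to 0.0731), while the call over Stab1KO was lost in 9 of 12 fits without 1 array, all except those without Stab2KO replicate 1 or 3 or WT replicate 1 (0.0557 to 0.151), and that over Stab2KO without DKO replicate 2 or 3, Stab2KO replicate 1 or 2, or WT replicate 2 (0.0503 to 0.118). Smad3, chosen after its values were seen, measured 8.94, 8.81 and 8.85 in DKO against 8.42, 8.28 and 8.57 in WT, 0.44 higher without passing the test (adjusted p = 0.0513).

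Of 31 measured genes that TGF-beta is known to induce, 1 rose and 3 fell in DKO against WT (median -0.04), or 1 and 2 without DKO replicate 3, where the median turned to 0.04, and 1 fell in each of Stab1KO (median -0.04) and Stab2KO (median -0.02). Of all genes, 0.754% rose and 1.05% fell in DKO, 0.279% fell in Stab1KO and 0.212% in Stab2KO. An unadjusted p under 0.05 (limma) was reached by 12, 8 and 8 of the 31, against 16.7%, 3.91% and 7.62% of all genes. The largest DKO rise, of Acta2, did not pass the test (9.66, 7.99 and 9.29 against 6.89, 6.79 and 7.21 in WT). Acta2 was named after its values were seen. Postn encodes periostin, a matrix protein and a known stabilin ligand. It fell to 4.27, 4.08 and 4.64 in DKO, 4.28, 4.27 and 3.91 in Stab1KO and 4.88, 4.61 and 4.18 in Stab2KO, against 6.15, 7.30 and 6.43 in WT. The differences were -2.30, -2.47 and -2.07 (limma adjusted p = 0.00332, 0.00329 and 0.0122). All knockout values of Postn lay below the array median, and the Stab2KO call was lost without Stab2KO replicate 2 (0.0616). The stellate markers were low in the same knockouts, at medians of -1.54 in DKO, -1.65 in Stab1KO and -1.23 in Stab2KO, and their part in the Postn result was not tested. Lox, a collagen cross-linking enzyme, was the riser, at 5.05, 5.03 and 4.95 in DKO, 4.34, 4.42 and 4.41 in Stab1KO, 4.47, 4.76 and 4.76 in Stab2KO and 4.49, 4.17 and 4.18 in WT. All Lox values lay below the array median of 5.11. Its means in WT (4.28) and Stab1KO (4.39) lay below 4.45, the 40th percentile of mean gene levels. The Lox difference was 0.73 ± 0.11 (SE) over WT (limma adjusted p = 0.00783). Over Stab1KO it was 0.62 (adjusted p = 0.0293), a call lost without DKO replicate 1 or 2 or any 1 Stab1KO array (0.0565 to 0.11).

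Col1a2, a chain of type I collagen, and Cald1, an actin-binding protein, fell in DKO by 0.74 and by 0.33 (limma adjusted p = 0.0438 and 0.0481). Leaving out 1 array ended that of Col1a2 in 10 of 12 fits, all except those without Stab1KO replicate 2 or Stab2KO replicate 3 (adjusted p = 0.0552 to 0.166), and that of Cald1 in 11 of 12, all except that without DKO replicate 1 (0.0537 to 0.179). With the replicate number as a block they had adjusted p-values of 0.0662 and 0.075. The stellate markers given above were low in DKO as well, and their part in these results was not tested.

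Tgfbi, chosen after its values were seen, encodes a TGF-beta-induced matrix protein that is a known stabilin ligand, and 1 array decided its call. It measured 9.12, 9.07 and 11.22 in DKO, 9.20, 9.18 and 9.44 in Stab1KO, 9.30, 9.29 and 9.62 in Stab2KO and 10.48, 11.10 and 10.66 in WT. Every knockout pool except DKO replicate 3, the array with the high neutrophil markers, lay below every WT pool. With all arrays the Tgfbi differences from WT were -0.94 in DKO, -1.47 in Stab1KO and -1.34 in Stab2KO, and none passed the test (limma adjusted p = 0.338, 0.858 and 0.48). Without DKO replicate 3 they were -1.65, -1.47 and -1.34, and all passed it (adjusted p = 0.00176, 0.0025 and 0.00645). What raised Tgfbi on that array was not tested.

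Some genes of these lists were also called between DKO and the single knockouts. In DKO against Stab1KO, 9 of 22 storage and release genes had an unadjusted p under 0.05 (limma). So did 9 of 31 transduction and 6 of 31 induced genes, beside 16.2% of all genes. Against Stab2KO these counts were 13, 11 and 8, beside 18.9%. Against Stab1KO, where 0.546% of all genes rose and 0.4% fell, Tgif1 and Lox rose and Emilin1 fell. Against Stab2KO, where 1.3% of all genes rose and 2.12% fell, 2 of the 22 storage and release genes rose (Fn1 and Itgb3) and 1 fell (Emilin1), 3 of the 31 transduction genes rose (Tgif1, Skil and Nedd4l) and 1 of the 31 induced genes rose (Angptl4). Fn1, Skil, Nedd4l and Angptl4 were named after their values were seen. Fn1, the gene of fibronectin, to which latent complexes anchor, differed by 1.51 (limma adjusted p = 0.029), a call lost without DKO replicate 1 or Stab2KO replicate 1 or 2 (0.0685 to 0.103). Skil, a Smad corepressor gene, differed by 0.59 (adjusted p = 0.0407), Nedd4l, a ubiquitin ligase gene, by 0.53 (0.0303), and Angptl4, a secreted lipase inhibitor gene, by 0.74 (0.0422). Leaving out 1 array ended the call of Skil in 9 of 12 fits, all except those without DKO replicate 1, Stab1KO replicate 1 or Stab2KO replicate 3 (0.0526 to 0.136), and that of Nedd4l without DKO replicate 1 or 2 or any 1 Stab2KO array (0.0546 to 0.111). That of Angptl4 ended in 10 of 12, all except those without DKO replicate 3 or Stab2KO replicate 3 (0.0537 to 0.146).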

How the data were processed

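Primary mouse LSECs were measured on 12 Affymetrix arrays, 4 genotypes with 3 pools each, and the labels call the pools biological replicates. The authors deposited log2 expression values, 1 per gene and array, made with RMA (background correction, quantile normalization and probe summary) per the submitters' processing notes; the RMA version and genome build are not given in the sources used. Without detection calls, low signal is not read as absence. The number of arrays limits the precision.

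Rows were named through the platform annotation, and where symbols were shared the row with the highest mean was kept (4 left out, 24011 genes). With limma 3.58.1 in R 4.3.3, group means were fitted over the 12 arrays with moderated, two-sided tests and Benjamini-Hochberg adjustment over all genes in each of 7 contrasts; a gene was called, and described as having risen or fallen, at an adjusted p under 0.05. Intervals are at 95%, before adjustment. The fit was tested on simulated data.

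The members, the 15 gene lists (206 of 213 genes measured; the others are not analysed here), the alternatives and the naming rule were chosen with earlier results of these data known. The rule named all 9 members, up to 6 genes per pathway list called against WT, by size of change, the 3 genes most like each called member, and defining markers. Smad3, Mmp9, Thbs1, Acta2, Tgfbi, Fn1, Skil, Nedd4l and Angptl4 fell outside it. Promoters are RefSeq's and were matched by gene identifier for 7 of 9 members. Alternatives were a replicate block, a low-signal filter, other variance and weighting options, renewed normalization, every row tested, fits on the compared arrays alone, and omission of each array. The omission of DKO replicate 3 from lists was added after the data were seen.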

Additional observations from a re-analysis of the deposited data

How the results depend on the processing

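The count of members called in DKO against WT was 1 and ranged between 0 and 1 over the 12 fits without 1 array; it was 0 when only the 6 arrays compared entered the fit, where Tgfb2 kept its difference of 1.00 (adjusted p = 0.158). In DKO against Stab1KO the count was 0 and became 1 (Tgfbr2) with a trended, robust variance and with array weights. The other comparisons gave 0 members throughout. Of 1188 member values under alternatives, 0 called ones changed sign and 39 uncalled ones did. The main fit did not pair pools by replicate number. Across genotypes, 18 same-numbered pairs deviated together with r between -0.06 and 0.29 (median 0.06). For 36 differently numbered pairs r lay between -0.27 and 0.21 (median -0.04). Whether same-numbered pools were handled together was not tested. With the replicate number as a block the Tgfb2 difference was 1.00 (adjusted p = 0.0281), and no member's call changed; it ended those of Mmp2 in Stab2KO and of Col1a2 and Cald1 in DKO against WT, as given above, and of Skil and Angptl4 in DKO against Stab2KO.

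Numbers of called genes over the whole array varied more. Where they differed from the main count by over 1.5 times, they lay between 97 and 1111 in DKO against WT (main 432), 46 and 47 in Stab1KO against WT (74), 29 and 148 in Stab2KO against WT (71), 18 and 466 in DKO against Stab1KO (227), 4 and 1789 in DKO against Stab2KO (822), 12 and 43 in Stab1KO against Stab2KO (26) and 3 and 199 for the interaction (12). With only the arrays compared, Emilin1 (0.0523), Postn (0.0555), Lox (0.0648), Mmp2 (0.0672), Thbs2 (0.076), Tgif1 (0.0889), Col1a2 (0.0981) and Cald1 (0.165) also lost their calls in DKO against WT (adjusted p in parentheses), and Dcn kept its call; Postn (0.116) and Itgb3 (0.0942) lost theirs in Stab2KO against WT, and the calls named above between DKO and the single knockouts were lost. Signal near or below the array median limits Tgfb3, Ltbp1, Ltbp2, Postn, Mmp2 and Lox.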
